A study of Mus musculus with 20 samples.

Results

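Autophagy takes cytoplasm to the lysosome for breakdown, and FoxO transcription factors are best known in muscle for driving genes of protein loss. The 42 genes described here cover that route in fibroadipogenic progenitors (FAPs), stromal cells in muscle from which fibroblasts and fat cells arise. They were taken by symbol from the 24394 symbols that the 3 count tables share, and all 42 were found. By role, 13 act in initiation and membrane growth, 12 in the conjugation of the LC3 and GABARAP proteins, 3 are cargo receptors, 7 belong to the lysosome or its transcriptional control, and 7 are FoxO factors or atrogenes, the genes first known for rising in wasting muscle. The mice were C57BL/6J males, and the cells came from their hindlimb muscle, gated as live, nucleated and SCA-1+ with no CD31, CD45 or α7-integrin. KPC mice carried KPCY cells, from a mouse pancreatic tumour line, placed in the pancreas, and controls were operated on without cells (sham). Day 14 had 4 KPC and 3 control libraries, day 21 had 3 of each, and day 26 had 3 KPC and 4 control libraries. The labels give no genetic change in the mice and no age, and each day has its own controls.

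Autophagy starts when the ULK1 kinase complex, which holds ATG13 and RB1CC1, turns on the lipid kinase PIK3C3 with BECN1 and ATG14. WIPI proteins, ATG2 and ATG9A then extend a membrane to which LC3 and GABARAP proteins are attached, receptors such as SQSTM1 (p62) bind cargo to them, and cathepsins digest the content in the lysosome. FoxO factors are held in the cytoplasm by AKT signalling, and when released they can switch on ubiquitin ligases such as Fbxo32 (atrogin-1) and Trim63 (MuRF1) together with autophagy genes. TFEB and TFE3, which mTORC1 restrains, do the same for lysosomal genes through E-boxes of the CLEAR type. In the muscle fibre these programmes accompany cachexia, the wasting seen with cancer. The libraries here come from progenitors of that muscle, not from fibres.

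To show the letters that FoxO and TFEB are known to read, RefSeq promoters (GRCm38.p6) were searched for the FoxO core GTAAACA, the E-box CACGTG and the CLEAR-type E-box TCACGTGA on both strands, over the 250 bases before each start. TCACGTGA holds CACGTG, so its matches count under both. Of the 42 genes, 33 had an entry. Fbxo32, Foxo4, Becn1, Rb1cc1, Pik3c3, Atg12, Atg16l1, Map1lc3a and Ctsb had none and were not searched. The FoxO core was found in 1 of 33 (3.03%), against 3.54% of all 27025 genes with an entry, and that gene was Trim63. The E-box was found in 6 of 33 (18.2%), namely Atg3, Atg5, Atg7, Lamp1, Ctsd and Ctsl, against 6.86% of all genes. The CLEAR type was found in Atg3 and Ctsd, or 6.06% against 0.907%. By GENCODE gene positions, the Atg7 promoter window, the CLEAR-type match of Ctsd and the E-box of Ctsl lie inside the gene. Their place before the start holds for the RefSeq start only. The Trim63 promoter lies at chr4:134314870-134315119 on the + strand, with the core in capitals on the reverse strand, and the Lamp1 promoter, with 4 E-boxes in capitals, lies at chr8:13158911-13159160 on the + strand. For Atg3 (chr16:45158746-45158775, + strand), Ctsd (chr7:142387908-142387937, - strand) and Ctsl (chr13:64370739-64370768, - strand) only the match in capitals and its flanks are shown.
Trim63: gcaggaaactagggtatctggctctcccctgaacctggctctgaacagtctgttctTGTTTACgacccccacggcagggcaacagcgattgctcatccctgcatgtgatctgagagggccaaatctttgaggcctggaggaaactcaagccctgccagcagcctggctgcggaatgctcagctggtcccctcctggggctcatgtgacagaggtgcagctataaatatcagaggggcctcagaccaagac
Lamp1: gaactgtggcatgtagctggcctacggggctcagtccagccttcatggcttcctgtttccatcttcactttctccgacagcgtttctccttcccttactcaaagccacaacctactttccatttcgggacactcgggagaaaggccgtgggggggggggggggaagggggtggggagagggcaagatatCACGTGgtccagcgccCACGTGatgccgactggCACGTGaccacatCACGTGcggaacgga
Atg3: ggagagtcgagTCACGTGAggccttaggtg
Ctsd: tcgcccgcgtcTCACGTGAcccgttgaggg
Ctsl: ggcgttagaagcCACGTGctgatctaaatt
A match is a description of these letters and not of binding, and nothing follows from it about a factor. Of the 6 genes with an E-box, Ctsl was higher and Lamp1 lower in KPC at day 26 in the fit without 1 KPC library that is described with the results, and the other 4 were not called at any day.

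Library totals lay between 12.9 and 26.4 M counts (M, megacounts). Among all genes tested, edgeR's quasi-likelihood test with Benjamini-Hochberg adjustment called 1.12% at day 14, 12.5% at day 21 and 0% at day 26, where a call is an adjusted p under 0.05. KPC replicate 3 stood apart at day 26: without it 51.6% of genes were called. It is also the KPC library of that day nearest to the controls, so a fit without it leaves out a library that bears on the outcome, and each such value is named. The markers of the sorted cell were present in all libraries, and the summed level of 10 progenitor markers lay at 49398 to 55381 CPM (counts per megacount of the library) in controls and 32764 to 36319 CPM in KPC at day 21, where 2 of the 10 rose and 3 fell. At day 26 it lay at 43389 to 55261 CPM in controls and at 18408, 25491 and 38329 CPM in KPC replicates 1 to 3. Markers of cells that the sort should remove were present unevenly, each list with a sum below that of the progenitor markers. The only marker at 0 in all libraries of a day was Myod1, of the satellite cell list, at day 21. At day 14 the sums in KPC and controls were 617 to 852 and 430 to 530 CPM for endothelial, 275 to 392 and 144 to 232 CPM for mural and 35.0 to 89.6 and 20.1 to 33.9 CPM for macrophage and monocyte markers. These did not overlap, while the myofibre and satellite cell sums of that day did. At day 21 the sum of 15 myofibre markers was 634.8 CPM in KPC replicate 1, 133 and 70.4 CPM in the other KPC libraries and 47.5 to 69.6 CPM in controls. At day 26 the sum of 14 macrophage and monocyte markers was 508 CPM in KPC replicate 1, 44.1 and 32.1 CPM in KPC replicates 2 and 3 and 22.1 to 34.4 CPM in controls. In sorted bulk RNA, fewer cells of a type and less RNA per cell cannot be told apart. At days 14 and 21 the number that opens the library code differed between all control and all KPC libraries; the labels do not say what it marks, and there it cannot be told apart from the treatment.

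The most abundant of the 42 genes per length of exon were lysosomal. In day 21 controls the mean level was 273 CPM per kilobase for Lamp1, a protein of the lysosomal membrane, 201 for the protease gene Ctsd, 167 for Ctsb and 138 for Ctsl. Sqstm1 followed at 135.5 and Gabarap at 120.2 CPM per kilobase. The muscle atrogenes stood at the other end, with 2.15 CPM per kilobase for Fbxo32 and 0.0528 for Trim63, ranks 41 and 42. The order at the top was the same in the controls of the 3 days for Lamp1, Ctsd and Ctsb.

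At day 21, 6 of the 41 genes tested rose in KPC and none fell. They were the LC3 family genes Gabarapl1 and Map1lc3b, the receptor gene Sqstm1 and the factors Foxo1, Foxo3 and Foxo4. These 6 are 14.6% of the genes tested, and the share of all genes called at that day was 12.5%, or 6.38% for higher and 6.11% for lower calls alone. The median log2 fold change was 0.17 over the 41 genes and 0.01 over all genes. At an unadjusted p under 0.05 there were 13 of 41 (31.7%), against 27.7% of all genes. The groups did not overlap for 18 of 41 (43.9%), against 33.2% of all genes. Trim63 had too few counts for a test, with 10 counts over the controls and 23 over KPC.

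**Figure D1:**
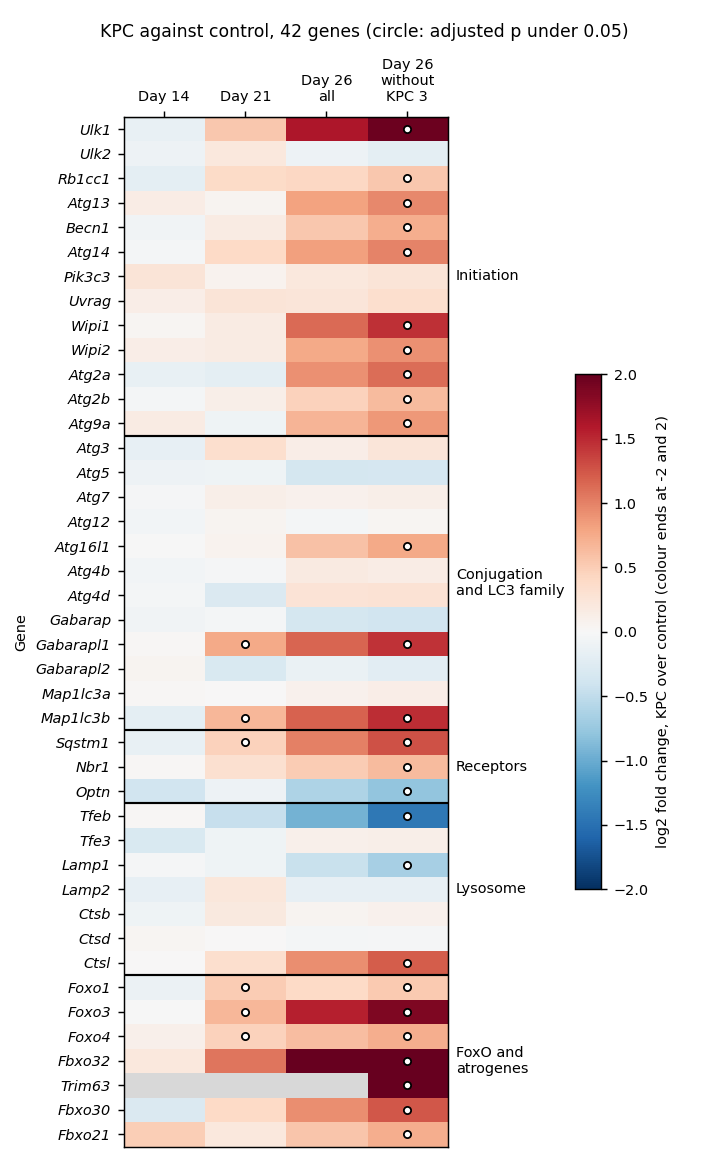
Log2 fold change of KPC over control for the 42 genes (rows, by role) at day 14, day 21, day 26 with all libraries and day 26 without KPC replicate 3 (columns). Circles mark an adjusted p under 0.05: 6 genes at day 21, none at day 14 or at day 26 with all libraries, and 26 without KPC replicate 3; grey is not tested, and colours end at a log2 fold change of 2 in either direction.

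Gabarapl1, an LC3-like protein of the GABARAP branch that is attached to the autophagosome membrane (chromosome 6, 129533160 to 129542346, + strand), had the smallest p of the 42 genes at day 21. It lay at 160.4, 164 and 165 CPM in controls and at 218, 318 and 289 CPM in KPC. All 3 KPC libraries were above all controls, by 0.75 ± 0.13 (SE) on the log2 scale (edgeR adjusted p = 0.00405). Map1lc3b, the LC3B gene used as the standard marker of autophagosomes (chromosome 8, 121590361 to 121598760, + strand), lay at 142, 144 and 152 CPM in controls and 183, 286 and 226 CPM in KPC. The groups did not overlap, and the rise was 0.67 ± 0.14 (adjusted p = 0.012, edgeR). In both genes KPC replicate 2 was highest and replicate 1 lowest among the KPC libraries. Gabarapl1 shares 570 exon bases with 1700101I11Rik and Map1lc3b shares 58 with Zcchc14, each on the opposite strand, and whether the counting used strand is not given in the sources used here. Besides these, 10 conjugation genes were not called, namely Atg3, Atg5, Atg7, Atg12, Atg16l1, Atg4b, Atg4d, Gabarap, Gabarapl2 and Map1lc3a.

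Sqstm1 encodes p62, which links ubiquitin-tagged cargo to LC3 and is itself degraded with it (chromosome 11, 50199366 to 50210827, - strand). Its levels were 443, 469 and 452 CPM in controls and 496, 702 and 689 CPM in KPC at day 21. KPC replicate 1 was just above the controls and the other 2 far above, with a rise of 0.47 ± 0.14 (adjusted p = 0.042, edgeR). Nbr1, a related receptor, lay at 146, 143 and 156 CPM in controls and 171, 199.7 and 183 CPM in KPC, without overlap, and missed the threshold (log2 0.31, adjusted p = 0.0673, edgeR). Optn, the receptor optineurin, had a log2 fold change of -0.11 (adjusted p = 0.695, edgeR).

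The 3 FoxO genes rose at day 21 in another order of libraries. Foxo3 (chromosome 10, 42181841 to 42276755, - strand) lay at 32.2, 29.0 and 30.2 CPM in controls and 60.1, 34.8 and 49.5 CPM in KPC (log2 0.66 ± 0.18, adjusted p = 0.0304, edgeR). Foxo1 (chromosome 3, 52268336 to 52353221, + strand) lay at 99.8, 82.6 and 95.3 CPM in controls and 159, 104 and 132 CPM in KPC (log2 0.51 ± 0.15, adjusted p = 0.045, edgeR). Foxo4 (chromosome X, 101254528 to 101260873, + strand) lay at 44.9, 38.9 and 36.7 CPM in controls and 62.6, 52.6 and 49.7 CPM in KPC (log2 0.45 ± 0.13, adjusted p = 0.0426, edgeR). No KPC library overlapped the controls in any of the 3 genes, and KPC replicate 1 was highest in each. That library also had the highest myofibre, macrophage, endothelial and mural marker sums of day 21, with 1099.5 CPM for 12 endothelial markers against 691 and 533 CPM in KPC replicates 2 and 3 and 564 to 601 CPM in controls. Of the markers of that day, 7 of 12 endothelial genes rose and Tek fell, 2 of 9 mural genes tested rose and Cspg4 fell, and 0 of 14 myofibre genes tested were called by edgeR (4 at an unadjusted p under 0.05). Of 11 macrophage genes tested Cd14 rose. Only 2 of the 6 satellite cell genes had enough counts for a test, and of these Sdc4 rose. The satellite cell sum was 151, 203 and 165 CPM in KPC replicates 1 to 3 and 80.6 to 102 CPM in controls, without overlap and highest in replicate 2, as were Gabarapl1 and Map1lc3b. The part of these cells in the results was not tested. Without KPC replicate 1 the log2 fold change was 0.47 for Foxo3, 0.34 for Foxo1 and 0.34 for Foxo4, with adjusted p-values of 0.0522, 0.0815 and 0.085 (edgeR), so none of the 3 was called. In that fit 9 of 42 genes were called, against 19.7% of all genes (9.72% higher and 10% lower): Ulk1, Rb1cc1, Gabarapl1, Map1lc3b, Sqstm1, Nbr1, Ctsl and Fbxo32 were higher and Tfeb was lower.

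Of the targets tied to FoxO in muscle, Fbxo32 lay at 14.8, 17.9 and 12.2 CPM in day 21 controls and 17.3, 54.4 and 22.5 CPM in KPC. KPC replicate 2 was high, replicate 1 lay within the control range, and the gene was not called (log2 1.07 ± 0.44, adjusted p = 0.177, edgeR). The alternative tool DESeq2 did call it (adjusted p = 0.0115). Fbxo30 (MUSA1) and Fbxo21 (SMART), ubiquitin ligase subunits also described as FoxO-dependent in muscle, had log2 fold changes of 0.40 and 0.21 and were not called. Trim63 was read at 0.0777, 0.372 and 0 CPM in controls and 0, 0.562 and 0.668 CPM in KPC.

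The kinase gene Ulk1 lay at 45.7, 46.6 and 58.5 CPM in day 21 controls and 49.1, 102 and 67.8 CPM in KPC (adjusted p = 0.199, edgeR), with KPC replicate 1 inside the control range. None of the 13 initiation genes was called at this day, and 11 of the 13 had a positive log2 fold change. Among the lysosomal genes, Ctsl was 929, 842 and 909 CPM in controls and 995, 1324 and 1074 CPM in KPC, without overlap (log2 0.34, adjusted p = 0.101, edgeR). Tfeb, whose product drives lysosomal genes, was 32.5, 30.6 and 32.4 CPM in controls and 29.9, 15.4 and 23.6 CPM in KPC. All 3 KPC libraries were below the controls, and the gene was not called (log2 -0.47, adjusted p = 0.16, edgeR). Lamp1 and Ctsd had log2 fold changes of -0.08 and 0.01.

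The day 21 calls depended on which libraries and which tool were used. Gabarapl1 was called in each of the 6 fits that left out a library, with a log2 fold change between 0.64 and 0.89. Map1lc3b was called in 3 of the 6, Sqstm1, Foxo1 and Foxo3 in 1 each and Foxo4 in 0. Leaving out any of the 3 controls left 1 gene called. With 1 fit of all 20 libraries, which shares the spread over days, 0 of the 42 genes were called at day 21, against 3.08% of all genes. DESeq2 called 9, all higher (all genes, 14.8%), and limma-voom with quality weights 6, all higher (all genes, 17.3%). Among the 9 were Fbxo32, Nbr1 (adjusted p = 0.0414, DESeq2) and Ctsl (adjusted p = 0.0392, DESeq2), which edgeR did not call with all libraries.

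**Figure D2:**
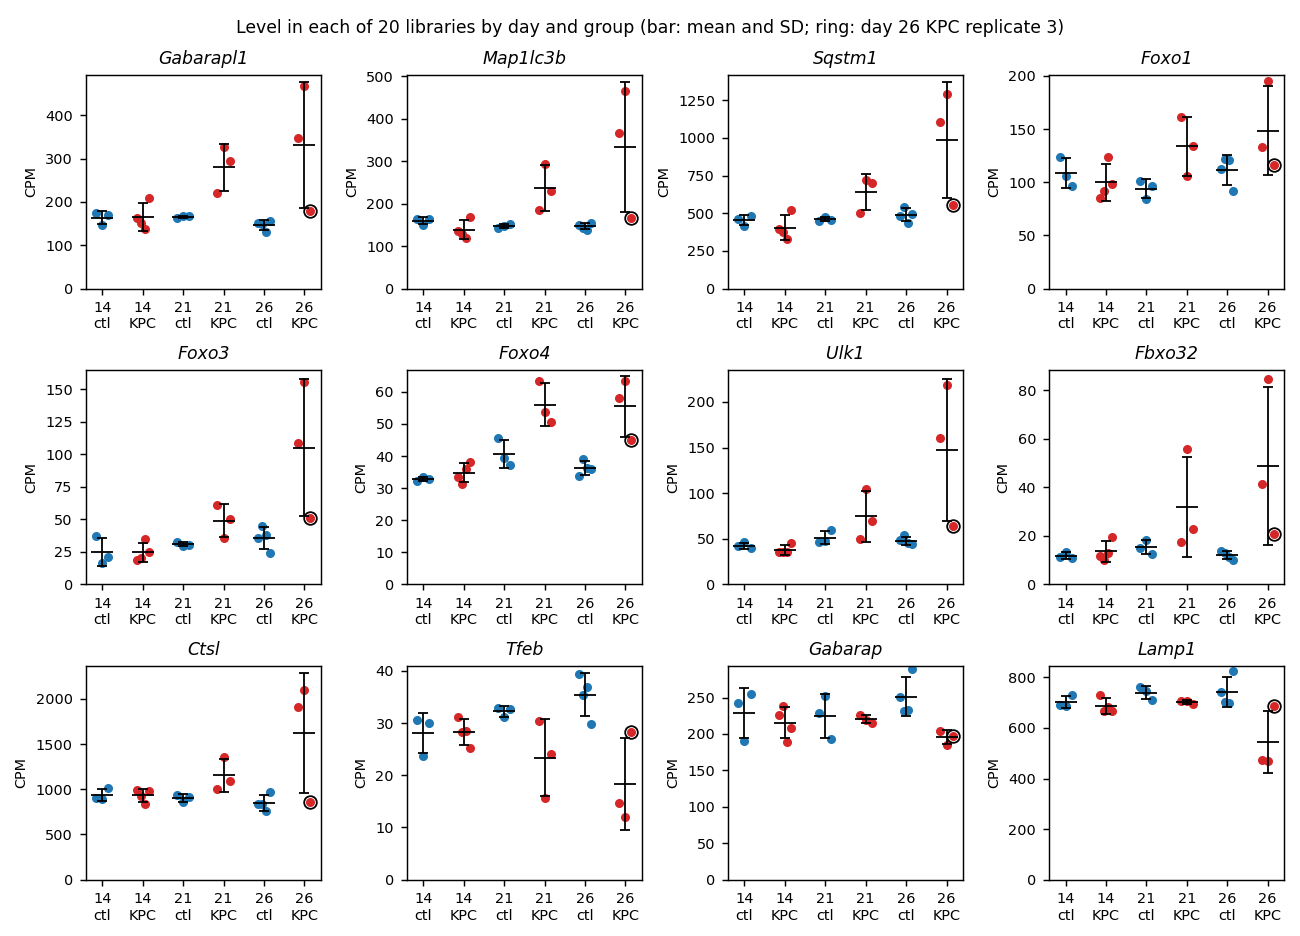
CPM on a scale common to all 20 libraries (vertical axes, from 0) for 12 of the genes, by day and group (horizontal axes; ctl is control, blue; KPC, red); points are libraries, and the bar with whiskers is the mean and SD. At day 26 the ringed KPC replicate 3 lies close to the controls for most of the 12 genes, while the other 2 KPC libraries lie above them for Gabarapl1, Map1lc3b, Ulk1 and Fbxo32 and below them for Tfeb and Lamp1.

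At day 26 edgeR called 0 of the 41 genes tested and 0% of all genes. At an unadjusted p under 0.05, 23 of the 41 (56.1%) passed, 20 higher and 3 lower in KPC, against 34.3% of all genes. The median log2 fold change was 0.41 over the 41 genes and 0.00 over all genes. The groups did not overlap for 17 of 41 (41.5%), against 29% of all genes. Other tools called some of them: DESeq2 called 18 (all genes, 18.8%), limma-voom with quality weights 22 (all genes, 34.8%) and the fit of all 20 libraries 25 (all genes, 34.6%). The smallest adjusted p in edgeR was 0.0592, for Fbxo32 and Atg13.

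Fbxo32 (atrogin-1; chromosome 15, 58175879 to 58214932, - strand) had the highest log2 fold change of the 41 genes tested at day 26. It lay at 13.3, 12.8, 11.2 and 9.53 CPM in controls and 41.3, 80.9 and 20.4 CPM in KPC. The groups did not overlap, and the difference was 2.02 ± 0.40 (adjusted p = 0.0592, edgeR). Foxo3 lay at 34.95, 43.7, 37.3 and 23.4 CPM in controls and 109, 149 and 50.6 CPM in KPC (1.56 ± 0.35, adjusted p = 0.0623, edgeR), again without overlap. Foxo4 had a log2 fold change of 0.61 (adjusted p = 0.0634, edgeR). Foxo1 did overlap, with 89.04 to 119.8 CPM in controls and 133, 187 and 115 CPM in KPC (0.40, adjusted p = 0.18, edgeR). Trim63 was read at 0.237, 0.195, 0 and 0.0934 CPM in controls and at 8.69, 2.59 and 0 CPM in KPC replicates 1 to 3, or 10 counts against 202. KPC replicate 1, where it was highest, also had the highest sum of myofibre markers of day 26, 369 CPM against 158 and 106 CPM in replicates 2 and 3 and 46.5 to 134 CPM in controls. The part of those fibres in the Trim63 counts was not tested.

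At an unadjusted p under 0.05, 9 of the 13 initiation genes were higher at day 26, against 2674 of 13157 among all genes tested. At day 21 it was 1 of 13, against 1881 of 13154 among all genes. None was called at either day or in the contrast of the 2 days, where the smallest adjusted p was 0.182 (edgeR). In that contrast Ulk1, Atg13, Wipi1, Wipi2, Atg2a and Atg9a had an unadjusted p under 0.05 (all genes, 12.9%). Ulk1 (chromosome 5, 110784488 to 110810097, - strand) lay at 47.5, 52.9, 44.1 and 42.3 CPM in controls and 159.5, 209 and 63.2 CPM in KPC (1.62 ± 0.34, adjusted p = 0.0605, edgeR). Atg13, which encodes the ULK1 partner that receives mTORC1 signals, was tight in controls at 33.5 to 35.3 CPM and lay at 62.6, 71.5 and 45.6 CPM in KPC (0.81 ± 0.16). All KPC libraries were above all controls in both genes. Atg2a, for a lipid transfer protein of the growing membrane, lay at 40.1 to 49.1 CPM in controls and 87.5, 106 and 55.9 CPM in KPC (0.92 ± 0.21, adjusted p = 0.0623, edgeR). Wipi2, which recruits the conjugation machinery, lay at 51.2 to 58.5 CPM in controls and 95.9, 112 and 68.4 CPM in KPC (0.75 ± 0.17, adjusted p = 0.0634, edgeR). KPC replicate 2 was highest and replicate 3 lowest in each of these 4 genes.

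Gabarapl1 lay at 149, 148, 128 and 150.3 CPM in day 26 controls and 347, 447 and 177 CPM in KPC, a difference of 1.17 ± 0.28 (adjusted p = 0.0642, edgeR). Map1lc3b lay at 147, 141, 137 and 150.5 CPM in controls and 365, 446 and 165 CPM in KPC (1.18 ± 0.30, adjusted p = 0.0678, edgeR). Sqstm1 lay at 473, 532, 432 and 483 CPM in controls and 1102, 1237 and 553 CPM in KPC (1.01 ± 0.28, adjusted p = 0.0728, edgeR). In these 3 genes too the groups did not overlap, and replicate 3 was just above the controls. Ctsl, which encodes cathepsin L, was 749 to 941 CPM in controls and 1909, 2004 and 852 CPM in KPC, so that replicate 3 was inside the control range (0.93, adjusted p = 0.0916, edgeR). Tfeb went the other way, with 38.6, 34.9, 36.5 and 28.96 CPM in controls and 14.6, 11.4 and 28.1 CPM in KPC (-0.94 ± 0.30, adjusted p = 0.0861, edgeR).

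Without KPC replicate 3, 26 of the 42 genes were called at day 26 (61.9%, against 51.6% of all genes), 23 higher (all genes, 25.7%) and 3 lower (all genes, 25.9%). In that fit the 6 FoxO and atrogene members tested with all libraries were higher. On the log2 scale the rise was 2.37 for Fbxo32, 1.87 for Foxo3, 1.25 for Fbxo30, 0.73 for Foxo4, 0.72 for Fbxo21 and 0.53 for Foxo1. Trim63, on few counts, was higher too and is among the 26 genes. It passed the count filter there through KPC replicates 1 and 2, in which it was high, so its call adds no support. Initiation gave 10 of 13, all higher, led by Ulk1 at 1.97 and Wipi1 at 1.46, while Ulk2, Pik3c3 and Uvrag were not called. Conjugation gave 3 of 12, Map1lc3b at 1.48, Gabarapl1 at 1.45 and Atg16l1 at 0.75. Sqstm1 (1.27) and Nbr1 (0.63) were higher and Optn (-0.78) was lower. Of the 7 lysosomal genes Ctsl was higher (1.22), and Tfeb (-1.43) and Lamp1 (-0.67) were lower. Ctsb, Ctsd, Lamp2 and Tfe3 were not called. With only the 5 libraries whose code opens with the same number (control replicates 1 to 3 and KPC replicates 1 and 2), 25 genes were called, against 47.1% of all genes.

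KPC replicates 1 and 2 of day 26, taken without replicate 3, both lay above all controls of the 3 days for 23 of the 42 genes (all genes, 21.1%) and below them for 3 (all genes, 23.5%). Replicate 2 held 342 CPM of endothelial, 44.1 CPM of macrophage and 86.1 CPM of mural markers, and replicate 1 held 1266, 508 and 545 CPM. Against the 4 controls, replicate 2 was below all of them for endothelial and mural markers (lowest control 382 and 174 CPM) and above all of them for macrophage markers (highest control 34.4 CPM), myofibre markers (158 against 134 CPM) and satellite cell markers. The median log2 ratio of the 41 genes to the control mean was 0.73 in replicate 2, 0.39 in replicate 1 and 0.04 in replicate 3. More than 1.5-fold above the control mean lay 22, 17 and 1 genes. At day 21 the medians were 0.03, 0.22 and 0.14 in KPC replicates 1 to 3. For the FoxO and atrogene members alone they were 0.49, 0.31 and 0.43, highest in replicate 1, which had the most myofibre and endothelial markers. Satellite cell markers, 6 genes, summed to 609.7, 333 and 118 CPM in KPC replicates 1 to 3 at day 26 and to 86.5 to 99.5 CPM in controls. Only 2 of these 6 genes had enough counts for a test at that day. The part of the marker genes' cells in these results was not tested.

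**Figure D3:**
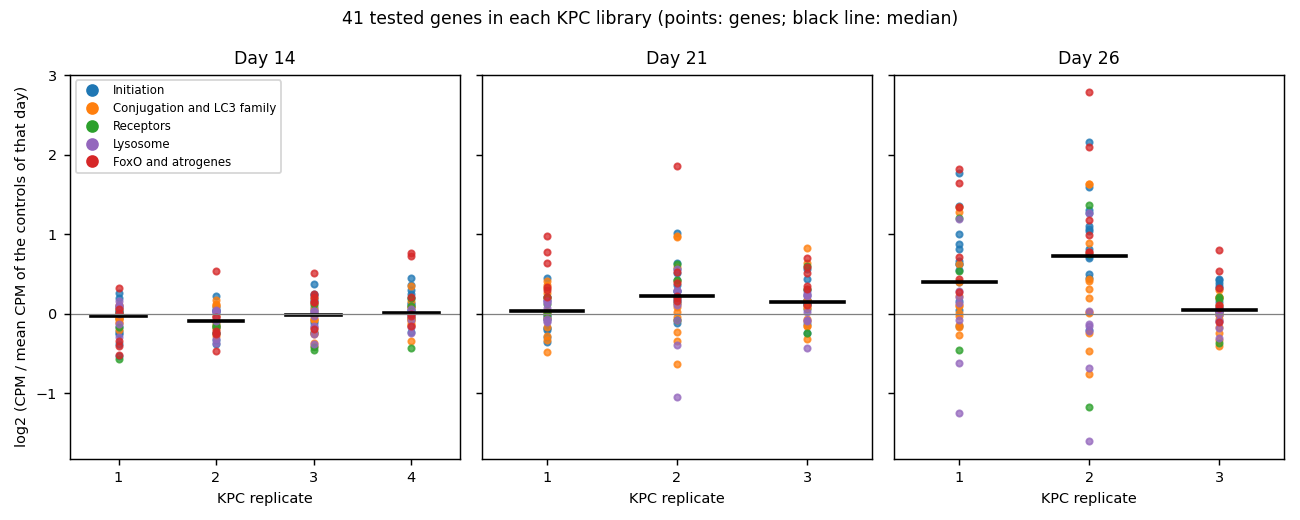
Log2 ratio of each tested gene's CPM to the mean of that day's controls (vertical axis) in each KPC library (horizontal axis), in a panel per day; points are the 41 genes coloured by role and the black line is their median. The medians of day 26 are 0.39, 0.73 and 0.04 in replicates 1 to 3, and at day 14 they lie between -0.10 and 0.00.

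At day 14 edgeR called 0 of the 41 genes, against 1.12% of all genes, and DESeq2 (all genes, 3.76%) and limma-voom (all genes, 4.97%) also called 0. At an unadjusted p under 0.05 there were 4 (9.8%), against 14.3% of all genes, 2 in each direction. Fbxo21 had the smallest p, with 27.4, 32.1 and 35.97 CPM in controls and 39.9, 46.1, 37.8 and 54.2 CPM in KPC (0.49 ± 0.15, adjusted p = 0.125, edgeR). Its groups did not overlap, as was the case for 5 of 41 genes (12.2%; all genes, 13.3%). Tfe3 lay at 78.7, 67.2 and 70.1 CPM in controls and 58.5, 57.9, 55.1 and 60.9 CPM in KPC (-0.31, adjusted p = 0.164, edgeR). Optn was at -0.39 (adjusted p = 0.224), Pik3c3 at 0.25 (0.32), Fbxo30 at -0.29 (0.357) and Map1lc3b at -0.19 (0.508) on the log2 scale, with edgeR adjusted p-values in parentheses. Foxo1 (-0.11), Foxo3 (-0.01), Gabarapl1 (0.02), Sqstm1 (-0.15), Ctsl (0.01), Tfeb (0.02) and Fbxo32 (0.21) had overlapping groups. Trim63 had 8 counts over the controls and 14 over KPC.

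The KPC effect was then compared between days in a fit of all 6 groups, where each effect is taken against its own day's controls. From day 14 to day 26 it was greater for 13 of the 42 genes (31.0%) and smaller for none, against 14.3% of all genes called (25 of 42 at an unadjusted p under 0.05; all genes, 33.1%). These were Ulk1, Atg13, Atg14, Wipi1, Atg2a, Gabarapl1, Map1lc3b, Sqstm1, Ctsl, Foxo3, Foxo4, Fbxo32 and Fbxo30. The difference was 1.80 ± 0.40 for Ulk1 (adjusted p = 0.0129), 1.39 ± 0.32 for Map1lc3b (0.0129) and 1.09 ± 0.24 for Atg2a (0.0124, edgeR). Without KPC replicate 2 of day 26, 3 genes were called (all genes, 3.21%), and without KPC replicate 3 there were 26 (all genes, 40.4%), so the count moved with that of all genes. Without control replicate 1 of day 14 there were 4 (all genes, 5.17%). From day 14 to day 21, 0 of 42 were called by edgeR (6 at an unadjusted p under 0.05, all genes 15.1%; DESeq2 0, all genes 2.84%; limma-voom 7, all genes 13.6%), against 0.644% of all genes. From day 21 to day 26, 0 of 42 were called by edgeR (10 at an unadjusted p under 0.05, all genes 12.9%; DESeq2 1, all genes 0.395%; limma-voom 6, all genes 7.59%), against 0% of all genes.

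Against all 10 control libraries on a common scale, the 3 KPC libraries of day 26 were above every control for Ulk1, Atg14, Atg9a, Gabarapl1, Map1lc3b, Sqstm1, Nbr1, Foxo3 and Fbxo32 (9 of 42; all genes, 4.95%), and below every control for Optn (all genes, 4.94%). At day 21 they were above every control for Gabarapl1, Map1lc3b, Nbr1, Foxo4 and Fbxo21 (5 of 42; all genes, 6.39%) and below for none (all genes, 5.61%). At day 14 the 4 KPC libraries were below every control for Tfe3 (1 of 42; all genes, 0.884%) and above for none (all genes, 2.06%). Gabarapl1, Map1lc3b and Nbr1 were above all controls at both later days.

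Genes of the same family had different values, although differences between genes were not tested. In the LC3 and GABARAP family at day 26, Gabarapl1 and Map1lc3b had log2 fold changes of 1.17 and 1.18, and Map1lc3a, Gabarapl2 and Gabarap had 0.08, -0.13 and -0.36. Gabarap lay at 227 to 280.05 CPM in controls and 204, 177 and 195 CPM in KPC, so all KPC libraries, replicate 3 included, were below the controls. Map1lc3a lay at 73.1 to 77.7 CPM in controls and 74.1, 93.1 and 71.96 CPM in KPC, with overlap. Ulk1 (1.62) stood beside its paralogue Ulk2 (-0.10), which lay at 56.9 to 70.2 CPM in controls and 56.3, 54.5 and 64.3 CPM in KPC. Tfeb (-0.94) stood beside Tfe3 (0.10), at 66.5 to 75.3 CPM in controls and 82.9, 73.3 and 73.6 CPM in KPC. Reads of such relatives could be shared only where their sequence is alike, and how the counting treated them is not given in the sources used here.

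**Figure D4:**
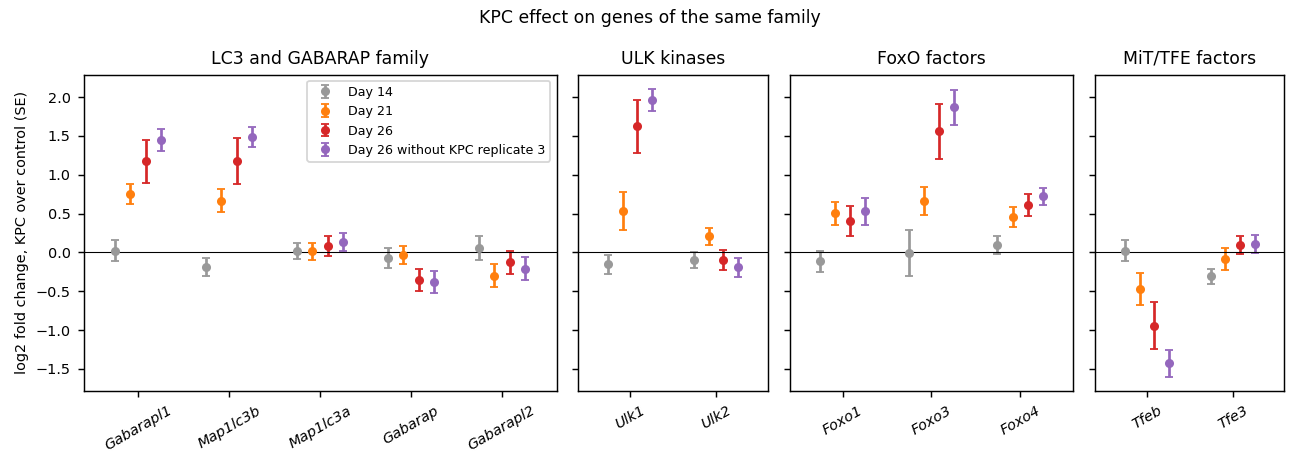
Log2 fold change of KPC over control with its SE (vertical axis) for genes of 4 families (horizontal axis), at day 14 (grey), day 21 (orange), day 26 (red) and day 26 without KPC replicate 3 (purple). Gabarapl1, Map1lc3b, Ulk1 and Foxo3 lie above 1 at day 26, Tfeb lies at -0.94, and Map1lc3a, Gabarapl2, Ulk2 and Tfe3 lie between -0.13 and 0.10.

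Other genes of the route were read from lists chosen with earlier results of these data known. Of 18 genes described as FoxO targets, 13 rose and 1 fell at day 21, with a median log2 fold change of 0.71 against 0.01 over all genes (12.5% of all genes called). The smallest p was that of Gadd45a, a stress gene of growth arrest, at 35.6, 23.5 and 25.8 CPM in controls and 57.9, 59.99 and 65.9 CPM in KPC (1.11 ± 0.16, adjusted p = 0.000956, edgeR). The largest rise was that of Pdk4, which inhibits pyruvate dehydrogenase, at 23.3, 14.01 and 17.6 CPM in controls and 57.7, 141 and 106 CPM in KPC (2.47 ± 0.36, adjusted p = 0.0084, edgeR). The KPC libraries were above all controls in both. Insulin signalling genes of the list, Irs2 (1.31) and Insr (0.84), rose too, as did Txnip, which encodes a thioredoxin inhibitor, Klf15 (1.88) and Ccng2 (1.04), and Bcl6 fell by 0.96. Pdk4 and Klf15 are also known as targets of the glucocorticoid receptor. Without KPC replicate 1 the count of genes higher was 13 (all genes, 9.72%). With other single libraries left out it was 6 to 10 (all genes called in either direction, 5.3% to 8.82%). In the fit of all 20 libraries it was 3 (all genes called in either direction, 3.08%). At day 26 without KPC replicate 3, 14 of the 18 were higher (all genes, 25.7%) and Sesn3 was lower (-1.37). With all libraries edgeR called 0, and 14 had an unadjusted p under 0.05 (all genes, 34.3%). There DESeq2 called 11 higher and limma-voom 13 higher, where they called 18.8% and 34.8% of all genes in either direction. At day 14 edgeR called 0 of 18 (all genes, 1.12%), with 2 at an unadjusted p under 0.05 (all genes, 14.3%). DESeq2 (all genes, 3.76%) and limma-voom (all genes, 4.97%) called 0 higher.

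**Figure D5:**
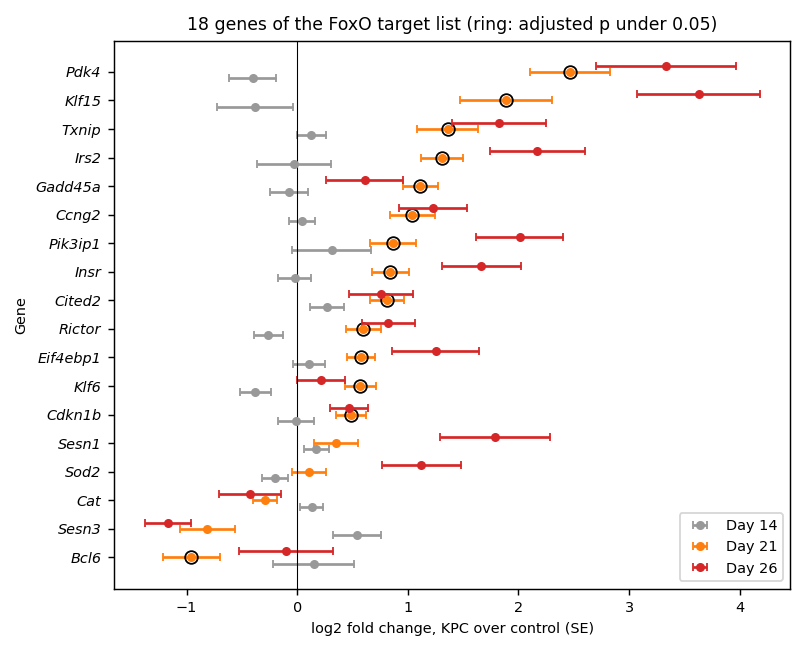
Log2 fold change of KPC over control with its SE (horizontal axis) for the 18 genes of the FoxO target list (vertical axis), at day 14 (grey), day 21 (orange) and day 26 with all libraries (red). Rings mark an adjusted p under 0.05, which 14 genes had at day 21, among them Pdk4 at 2.47 and Bcl6 at -0.96, and none had at day 14 or day 26.

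Among 12 further receptors, 3 rose at day 21 and none fell (25.0%; all genes, 12.5%). Bnip3, a mitophagy receptor of the outer mitochondrial membrane, lay at 12.8, 14.01 and 11.1 CPM in controls and 23.2, 77.5 and 53.8 CPM in KPC (2.03 ± 0.42, adjusted p = 0.0286, edgeR). Retreg1, listed in the tables under its older symbol Fam134b and a receptor for the endoplasmic reticulum, lay at 2.797, 3.91 and 3.097 CPM in controls and 5.47, 7.99 and 8.74 CPM in KPC (1.18 ± 0.30, adjusted p = 0.0255, edgeR). Calcoco1 was the third (0.55). In all 3 the KPC libraries lay above the controls, and in Bnip3 replicate 1 was the lowest of them. At day 26 Bnip3 lay at 11.02 to 13.8 CPM in controls and 115, 153 and 21.2 CPM in KPC. Without KPC replicate 3, 6 of the 12 receptors were higher (all genes, 25.7%) and 4 lower (all genes, 25.9%), with Bnip3 at 3.45 and Fam134b at 2.72 above, and Ncoa4, the ferritin receptor, at -1.11 below.

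Of the 27 lysosomal hydrolases, 2 rose and 2 fell at day 21 (14.8%, near the 12.5% of all genes): Lgmn (legumain, 0.96) and Ctsa (0.52) were higher and Ctsh (-0.57) and Arsb (-0.35) lower. Lgmn lay at 54.6, 52.1 and 64.04 CPM in controls and 95.6, 141 and 94.7 CPM in KPC (adjusted p = 0.00328, edgeR). Macrophages are also rich in legumain, and their marker sum at day 21 was 157, 62.7 and 29.4 CPM in KPC replicates 1 to 3 against 19.4 to 44.99 CPM in controls. The part of macrophages in the Lgmn counts was not tested. At day 26 with all libraries edgeR called 0 of the 27, with a median log2 fold change of -0.25. At an unadjusted p under 0.05, 7 were lower and 3 higher, against 1834 lower and 2674 higher of 13157 among all genes. Without KPC replicate 3, 14 were lower (all genes, 25.9%) and 4 higher (all genes, 25.7%), with a median of -0.50. In that fit Hexa, for a subunit of β-hexosaminidase, was at -1.79 and Ctsh at -2.03, the largest fall of the list. Of 23 membrane and proton pump genes tested, 1 rose at day 21 (4.3%; all genes, 12.5%), Mcoln1, the calcium channel of the lysosome, at 31.04, 31.6 and 33.4 CPM in controls and 43.4, 55.6 and 43.3 CPM in KPC (0.57, adjusted p = 0.018, edgeR). At day 26 without KPC replicate 3 this list gave 6 higher and 5 lower (47.8%; all genes, 51.6%).

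Of 27 genes of mTORC1, AMPK and AKT control, 3 rose and 1 fell at day 21 (14.8%, near the 12.5% of all genes). Deptor, an inhibitor of mTOR, lay at 65.3, 81.4 and 90.97 CPM in controls and 112, 160.4 and 133 CPM in KPC (0.77, adjusted p = 0.00782, edgeR). Mitf, a relative of TFEB, lay at 24.8, 27.7 and 44.3 CPM in controls and 61.7, 104 and 87.5 CPM in KPC (1.38 ± 0.26, adjusted p = 0.0128, edgeR). Both were above all controls in every KPC library. Flcn (0.81), which acts on the Rag GTPases that place TFEB and MITF under mTORC1, rose, and Mlst8 (-0.62), a subunit of the mTOR complexes, fell. At day 26 without KPC replicate 3, 16 of these 27 were higher (all genes, 25.7%) and 5 lower (all genes, 25.9%), with Mitf at 2.48, Tsc1 at 1.88 and Deptor at 1.67 above and Mlst8 at -1.76 and Tsc2 at -0.66 below.

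Among 20 further genes of the autophagy machinery, 1 fell at day 21 and none rose (5.0%; all genes, 12.5%). This was Rubcn, a negative regulator of the PIK3C3 complex listed under its older symbol 1700021K19Rik, at 83.02, 79.8 and 85.9 CPM in controls and 67.8, 45.9 and 48.99 CPM in KPC (-0.61 ± 0.14, adjusted p = 0.0173, edgeR). At day 26 it lay at 67.6 to 85.3 CPM in controls and 29.2, 27.97 and 77.3 CPM in KPC, and without KPC replicate 3 it was at -1.46. That fit gave 7 of the 20 higher, with Atg101, another ULK1 partner, at 1.82, and 4 lower (55.0%; all genes, 51.6%). Of 13 ubiquitin genes tied to atrophy, 1 rose at day 21 (7.7%; all genes, 12.5%), Zfand5, at 38.3, 40.2 and 47.8 CPM in controls and 64.7, 68.5 and 76.1 CPM in KPC (0.73 ± 0.12, adjusted p = 0.00325, edgeR), and 6 were higher and 2 lower at day 26 without KPC replicate 3 (61.5%; all genes, 51.6%). At day 14 edgeR called none of the genes in these lists. From 0 (receptors) to 3 (ubiquitin genes) of a list had an unadjusted p under 0.05, against 14.3% of all genes. Mitf lay at 47.4, 51.8 and 58.98 CPM in day 14 controls and 25.2, 24.9, 23.04 and 54.8 CPM in KPC replicates 1 to 4 (-0.71, adjusted p = 0.352, edgeR), so replicate 4 was within the control range. Without KPC replicate 4 it was lower (-1.11, adjusted p = 0.00281, edgeR), the opposite of its direction at the later days, and Klf6 of the FoxO target list was lower too (-0.52, adjusted p = 0.0437, edgeR), against 1.93% of all genes called. That fit leaves out the KPC library nearest to the controls for Mitf. The code of that library also opens with another number than those of the other KPC libraries of day 14.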

How the data were processed

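Messenger RNA libraries of sorted FAPs (20 libraries in 6 groups) were compared between KPC and control mice at each day. The authors deposited raw counts per gene symbol in 3 tables, which are whole numbers with no normalization. Per the submitters' processing notes the build was mm10 and the tools, with no roles stated, included STAR, Bowtie, bcl2fastq 2.20, R 4.2.1 and DESeq2 1.36.0. What counted the reads, on which annotation and with what use of strand, is not given in the sources used here. Columns were matched to samples by the library codes in the labels. No 2 libraries of the same group agreed within sampling noise, by a chi-square comparison of their counts; pairs across groups were not compared. The labels call the samples biological replicates without naming animals, so p-values measure the spread between these samples.

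Each day was fitted alone with edgeR 4.0.16 in R 4.3.3 (TMM scaling, filterByExpr with a minimum count of 10 and total of 15, robust quasi-likelihood, 2-sided) and adjusted by Benjamini-Hochberg over all genes tested. The SE is the size of the log2 fold change over the square root of its F statistic. CPM use the scaling of that day. Differences between days are contrasts in a fit of all 6 groups. DESeq2 1.42.0, limma 3.58.1 (voom), other scalings, no count filter, a replicate block and leaving out each library were alternatives, and the scripts were tested on simulated counts. Positions and exon lengths come from GENCODE vM21, which uses mm10, and promoters from RefSeq GRCm38.p6; the starts of the 2 can differ. The members and lists were chosen with earlier results of these data known. Genes are named by rule: the genes called at a day or, where fewer than 6 were called, those with the smallest p, plus Fbxo32, Trim63, Foxo1, Foxo3, Gabarapl1, Map1lc3b, Sqstm1, Ctsl and Tfeb; at day 26 also those called without KPC replicate 3; and of each list the called genes with the smallest p and the largest change. Other genes were named after their values were seen.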

Additional observations from a re-analysis of the deposited data

Results flagged for a closer look

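In the groups of 4 libraries, each of the tested genes was screened for a library far from the others. Of 82 screens 3 found one, and chance gives about 1 in 20. Ulk1 lay at 45.99 CPM in KPC replicate 4 of day 14 and at 36.1 to 36.4 CPM in the other 3 KPC libraries. Gabarapl2 lay at 24.97 CPM in KPC replicate 3 of day 14 and at 30.7 to 31.6 CPM in the others. Gabarapl1 lay at 128.5 CPM in control replicate 3 of day 26 and at 148 to 150.3 CPM in the others.

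The KPC effect differed between day 26 and day 14, by the contrast in edgeR with an adjusted p under 0.05, for 13 of the 42 genes (31.0%, all genes 14.3%). That count was 3 without KPC replicate 2 of day 26 (all genes, 3.21%) and 26 without KPC replicate 3 (all genes, 40.4%). It was 4 without control replicate 1 of day 14 (all genes, 5.17%). On the log2 scale the difference was 1.797 for Ulk1, 0.6784 for Atg13, 0.8837 for Atg14, 1.109 for Wipi1 and 1.09 for Atg2a among the initiation genes. It was 1.165 for Gabarapl1, 1.386 for Map1lc3b, 1.17 for Sqstm1 and 0.938 for Ctsl. Among the FoxO and atrogene members it was 1.585 for Foxo3, 0.5313 for Foxo4, 1.836 for Fbxo32 and 1.24 for Fbxo30. The mice of the days differ, so these compare groups of libraries and not the same animals over time.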

How the results depend on the processing

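The day 26 results turn on KPC replicate 3, and the day 21 calls on each control. All genes called at day 14 numbered 278 with no count filter, 553 in DESeq2, 663 in limma-voom, 2 in 1 fit of all 20 libraries, 361 with a replicate block and 40 to 255 with a library left out; the 42 genes gave 0 in each. At day 21 DESeq2 called 2188 genes and 9 of the 42, and limma-voom 2272 and 6. The fit of all 20 libraries there called 436 and 0, and leaving out a library called 717 to 2644 and 1 to 9. At day 26 DESeq2 called 2714 and 18, limma-voom 4578 and 22, the fit of all 20 libraries 4890 and 25, the libraries of 1 code (chosen after seeing the data) 6287 and 25, and leaving out a library 0 to 6972 and 0 to 26. For day 21 minus day 14, DESeq2 called 369, limma-voom 1927 and 7, and leaving out a library 24 to 162. For day 26 minus day 14, limma-voom called 4295 and 22, the replicate block 1330 and 9, and leaving out a library 466 to 5900 and 3 to 26. For day 26 minus day 21, DESeq2 called 58 and 1, limma-voom 1074 and 6, the replicate block 1 and 0, and leaving out a library 0 to 3201 and 0 to 15. The cause was not tested. Scaling by library size alone made 63.2% of the day 21 calls higher (51.1% with TMM).

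Small day 14 differences, none called, changed sign. Ctsl was at -0.004754 with DESeq2 size factors, -0.003906 with no filter, -0.005978 in DESeq2, -0.01802 in limma-voom, -0.007534 in the fit of all libraries, -0.01127 with the replicate block and -0.03557 to 0.05607 with a library left out. Gabarapl1 was at -0.01948 in limma-voom, -0.1038 with the block and -0.1028 to 0.09542 with a library left out. Fbxo32 was at -0.02285 with the block and -0.02088 to 0.3318, Foxo3 at 0.03012 with the block and -0.2351 to 0.3947, and Tfeb at -0.09221 to 0.08185 with a library left out. Of the other alternatives of single values, 545 kept direction and side of the threshold, 117 no longer passed it, 63 newly passed it and 21 values without a test moved beyond their spread or their 1.5-fold bound. Same-numbered control and KPC samples shared that number, and replicates 1 and 2 of day 26 also shared the number that opens the library code. The correlation of their deviations ran from -0.115 to 0.147. At day 26 it was 0.069, 0.068 and 0.147 for replicates 1 to 3. Low counts kept Trim63 from being tested at each day with all libraries.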
